A study of Mus musculus with 8 samples.

Results

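The vomeronasal type 2 receptor (Vmn2r) genes encode pheromone receptors of the mouse vomeronasal organ, and their chromatin is described here in regulatory T cells (Treg). Members were all protein-coding autosomal genes whose symbol in the RefSeq annotation of mouse build mm10 begins with Vmn2r. The rule found 123 genes among 21631 protein-coding genes of the autosomes and X, and 122 of them were taken as placed on an assembled chromosome and were measured. Vmn2r122 was not measured: its listed position ends before the first H3K9me2 peak of its chromosome, so it was treated as unplaced. Vmn2r121 lies on X and is outside the rule. Each gene was taken with 5 kb on both sides, and genes less than 500 kb apart were joined into clusters, which gave 19 clusters spanning 12.6 Mb, 14 of them with more than 1 member.

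All libraries came from C57BL/6 mice aged 8 to 12 weeks. H3K9me2, the dimethylated form of lysine 9 on histone H3, was mapped by CUT&RUN in Treg from tumours, with 3 libraries from mice in which Jmjd1c is conditionally knocked out in Treg alone (cKO) and 3 from wild-type (WT) mice. Open chromatin was mapped by ATAC-seq in 1 library of WT tumour Treg and 1 of WT spleen Treg. The labels do not say whether replicates were separate animals, so p-values measure the spread between these libraries, which may be technical. The Cre that deletes Jmjd1c acts in Treg only, so other cells of the knockout mice keep the gene. Each library is a bulk of sorted cells, in which a difference in some cells and a smaller difference in every cell cannot be told apart.

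Vmn2r proteins are G protein-coupled receptors with a large extracellular domain, expressed in sensory neurons of the basal layer of the vomeronasal epithelium. They detect peptides and proteins such as exocrine gland-secreting peptides (Esp) and major urinary proteins (Mup), and signal through the G protein subunit Gnao1 and the channel Trpc2. The genes lie in tandem arrays with many pseudogenes, like the Vmn1r and olfactory receptor (Olfr) genes. H3K9me2 is a mark of repressed chromatin, and JMJD1C belongs to a family of histone lysine demethylases.

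The following promoter sequences carry the main contrasts among members. Each runs from 250 bases before to 50 bases after an annotated start, comes from RefSeq for GRCm38.p6 (mm10), and is printed from 5′ to 3′ on the strand of the gene, with CG dinucleotides in capitals. The first pair are the starts of Vmn2r29, at chr7:7247279-7247578 (minus strand, with no CG) and at chr7:7278240-7278539 (minus strand, with 23 CG). The promoter of Vmn2r34 at chr7:7689349-7689648 (minus strand) is identical to that of Vmn2r45. Vmn2r116, at chr17:23384553-23384852 (plus strand), is the receptor of the pheromone ESP1, and Vmn2r7, at chr3:64719553-64719852 (minus strand), belongs to the family C receptors that are expressed together with other Vmn2r proteins.
Vmn2r29 proximal start: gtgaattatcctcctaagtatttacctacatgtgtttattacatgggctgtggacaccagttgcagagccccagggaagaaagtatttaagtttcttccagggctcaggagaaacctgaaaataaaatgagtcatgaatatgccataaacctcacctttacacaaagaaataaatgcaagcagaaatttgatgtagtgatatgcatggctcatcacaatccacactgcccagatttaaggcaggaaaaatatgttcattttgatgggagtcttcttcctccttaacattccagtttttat
Vmn2r29 distal start: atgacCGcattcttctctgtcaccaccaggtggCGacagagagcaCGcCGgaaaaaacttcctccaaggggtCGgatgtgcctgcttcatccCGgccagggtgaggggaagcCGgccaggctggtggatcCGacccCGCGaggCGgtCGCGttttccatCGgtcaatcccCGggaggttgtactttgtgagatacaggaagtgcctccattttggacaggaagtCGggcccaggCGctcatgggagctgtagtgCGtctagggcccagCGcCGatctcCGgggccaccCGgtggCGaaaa
Vmn2r34: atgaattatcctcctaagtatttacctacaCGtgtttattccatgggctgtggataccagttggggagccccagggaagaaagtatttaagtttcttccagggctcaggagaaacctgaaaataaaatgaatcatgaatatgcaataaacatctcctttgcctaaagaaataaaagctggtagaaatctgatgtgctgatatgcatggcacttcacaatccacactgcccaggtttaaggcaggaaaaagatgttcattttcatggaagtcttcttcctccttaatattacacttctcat
Vmn2r116: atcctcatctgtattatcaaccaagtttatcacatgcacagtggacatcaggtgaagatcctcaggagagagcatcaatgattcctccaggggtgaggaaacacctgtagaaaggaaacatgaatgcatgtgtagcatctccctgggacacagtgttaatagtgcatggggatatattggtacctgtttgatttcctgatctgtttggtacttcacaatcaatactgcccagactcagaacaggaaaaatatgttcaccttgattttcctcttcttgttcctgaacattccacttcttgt
Vmn2r7: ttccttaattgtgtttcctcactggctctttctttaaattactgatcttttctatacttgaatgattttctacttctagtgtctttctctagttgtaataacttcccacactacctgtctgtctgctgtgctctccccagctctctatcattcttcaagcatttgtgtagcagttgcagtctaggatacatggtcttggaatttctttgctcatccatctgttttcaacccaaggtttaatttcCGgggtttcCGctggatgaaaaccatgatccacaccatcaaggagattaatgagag

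The H3K9me2 values are lengths covered by the peaks that the authors called in each library, and "covered percent" is the share of a region inside such peaks. Libraries held 24774509 to 30313851 tags and 109816 to 178546 deposited peaks, which covered 3.39 to 5.36% of the autosomes and X. Since the amount called differs between libraries, coverage was also divided by the genome-wide coverage of the same library, and this ratio is called relative coverage. The ATAC libraries held 11293674 tags in tumour and 11068821 in spleen, and 6 of 7 Treg markers had a peak within 5 kb in each, while Ctla4 had none. Markers of other cells also had peaks. Of 3 stromal and endothelial markers, 2 had a peak in tumour and 3 in spleen (Pecam1 7 and 1 peaks, Col1a1 1 and 1), and of 5 melanocyte and epithelial markers 1 and 2 did, with Pmel at 3 and 2. Cd79a, of 3 B cell markers, had 1 in each, Itgam, of 3 myeloid markers, had 2 in tumour, and the CD8 markers Cd8a and Cd8b1 had none. The covered percent of Jmjd1c itself was 2.14, 3.26 and 1.78 in cKO and 1.46, 2.15 and 1.47 in WT, which does not check the deletion.

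The share of the Vmn2r clusters inside H3K9me2 peaks was close to that of the whole genome when all deposited peaks were used. Relative coverage was lower in every cKO library than in every WT library. Wide flat domains can escape these peaks, so coverage is not the total amount of the mark. With the stronger 50% of each list the clusters lay above the rest of the autosomes, at a log2 ratio of 0.31 (exact sign-flip p = 0.03125, n = 6), in place of -0.05 with all peaks. The covered percent of the pooled clusters was 5.15, 3.78 and 3.03 in cKO and 3.85, 4.50 and 3.55 in WT. The groups overlapped, with cKO replicate 1 highest and cKO replicate 3 lowest of the 6. The means were 3.99% ± 1.08 in cKO and 3.97% ± 0.485 in WT (SD, n = 3 each; exact permutation test, two-sided, p = 1).

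Relative coverage of the clusters was 0.961, 0.851 and 0.833 in cKO and 0.990, 1.10 and 1.05 in WT. The groups did not overlap, with means of 0.881 ± 0.0693 in cKO and 1.04 ± 0.0543 in WT (SD, n = 3 each). The exact two-sided permutation test gave p = 0.1, the smallest that 3 against 3 libraries allow. The genome-wide covered percent averaged 4.48 ± 0.864 in cKO and 3.79 ± 0.360 in WT, and what part this difference plays in the relative values was not tested. Cutting all peak lists to equal length moved the relative difference from -0.163 to -0.0988 (exact permutation p = 0.4, n = 3 each), a change of over 1.5 times.

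The other arrays of chemosensory receptors gave a reference. The 229 Vmn1r genes formed 15 clusters of 11.1 Mb, and the 1103 Olfr genes formed 52 clusters of 30.8 Mb. Vmn1r clusters had a relative coverage of 0.741 ± 0.0912 in cKO and 0.862 ± 0.0532 in WT (p = 0.3 by exact permutation, n = 3 each). Olfr clusters had 0.892 ± 0.0928 in cKO and 0.909 ± 0.0222 in WT (p = 0.9 by exact permutation, n = 3 each). In both families the groups overlapped.

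Vmn2r clusters were covered more than Vmn1r clusters in 6 of 6 libraries, with a mean log2 ratio of 0.27 ± 0.11 (SD, n = 6). The exact sign-flip test gave p = 0.03125, the smallest it can give, and 0.0625 after Benjamini-Hochberg adjustment over the 2 families compared, so the difference did not pass. Its size depends on how clusters are drawn: the log2 ratio was 0.47 with genes joined under 200 kb and 0.11 with genes joined under 1 Mb (exact sign-flip p adjusted over the 2 families = 0.0625 and 0.125, n = 6). Against Olfr clusters the log2 ratio was 0.09 ± 0.14, above 0 in 4 of 6 libraries (exact sign-flip p = 0.1875, adjusted 0.1875, n = 6). That ratio was higher in WT, at 0.20 ± 0.10, than in cKO, at -0.02 ± 0.04, and the groups did not overlap (exact permutation p = 0.1, n = 3 each). The ratio to Vmn1r clusters was alike in both, at 0.28 ± 0.16 in WT and 0.25 ± 0.07 in cKO, with overlapping groups (exact permutation p = 0.9, n = 3 each). Against the rest of the autosomes the log2 ratio was -0.05 ± 0.17, below 0 in all 3 cKO libraries and above 0 in all 3 WT libraries (exact sign-flip p = 0.469, n = 6).

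**Figure D1:**
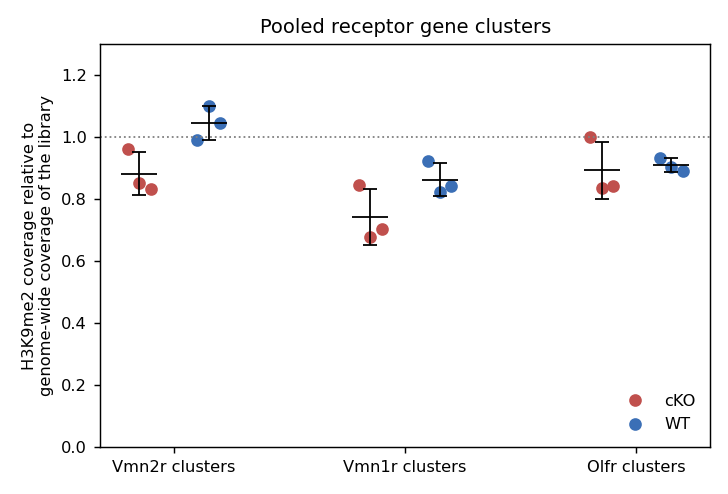
H3K9me2 coverage of all clusters of each receptor family, divided by the genome-wide coverage of the same library. Points are libraries (red cKO, blue WT), black bars the mean and SD of 3, and the dotted line is the genome level; in the Vmn2r clusters the cKO points lie at 0.833 to 0.961 and the WT points at 0.990 to 1.10, and in the other families the groups overlap.

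The clusters differed widely from one another. Among the 14 clusters with more than 1 member, mean relative coverage over the 6 libraries ran from 0.248 in the cluster of Vmn2r88 and Vmn2r89 on chromosome 14 to 1.43 in the cluster of Vmn2r57 to Vmn2r126 on chromosome 7. In what follows, clusters on 1 chromosome are told apart by letters in the order of their position.

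Cluster 3, with the 7 family C genes Vmn2r1 to Vmn2r7 (chr3:64073172-64724602), was among the highest, with covered percents of 7.34, 5.68 and 4.81 in cKO and 5.71, 7.32 and 4.05 in WT. The groups overlapped fully. Cluster 6, with Vmn2r19 to Vmn2r27 (chr6:123303333-124236784), was low in every library, at 2.98, 1.54 and 0.848 in cKO and 0.599, 1.86 and 0.575 in WT. Its mean relative coverage was 0.319, against 1.40 for cluster 3. The largest array, cluster 17A with 22 members (chr17:17698941-20601259), also lay below the genome level, at 0.661.

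Relative coverage was lower in every cKO library than in every WT library in 4 of the 14 clusters, and higher in 1. Clusters have no counterpart of equal length elsewhere, but among 2552 windows of 1 Mb across the genome 14.1% were lower and 14.9% higher in this sense. The 4 were 7E, 7F and 7G on chromosome 7 and 17A. In cluster 7E (Vmn2r57 to Vmn2r126, chr7:41394732-43053106) the relative values were 1.35, 1.16 and 1.06 in cKO and 1.74, 1.59 and 1.68 in WT. In cluster 7F (Vmn2r65 to Vmn2r76, chr7:84935169-86251201) they were 1.21, 0.710 and 1.11 in cKO and 1.36, 1.59 and 1.60 in WT. In both clusters every WT library lay well above the genome level of 1, and the cKO libraries lay nearer to it or below.

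Cluster 7G, with Vmn2r77 to Vmn2r79 (chr7:86790141-87042968), was the only one with non-overlapping groups and lower in cKO without division by the genome-wide level, which held for 1.8% of the 1 Mb windows. Its covered percent was 4.81, 5.57 and 4.66 in cKO and 5.64, 7.85 and 5.84 in WT. The groups did not overlap, and the exact permutation test gave p = 0.1 (n = 3 each; adjusted p = 0.7 over 14 clusters). Cluster 14 (Vmn2r88 and Vmn2r89, chr14:51406001-51466293) was the only one with non-overlapping groups and higher in cKO, as were 26.6% of the windows. Its covered percent was 3.37, 2.52 and 1.07 against 0 in all 3 WT libraries (exact permutation p = 0.1, adjusted 0.7, n = 3 each). Vmn2r88 and Vmn2r89 themselves, with their flanks, had no covered base in any library, so the covered stretches lay between them. No cluster could reach an adjusted p under 0.05 in this design.

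**Figure D2:**
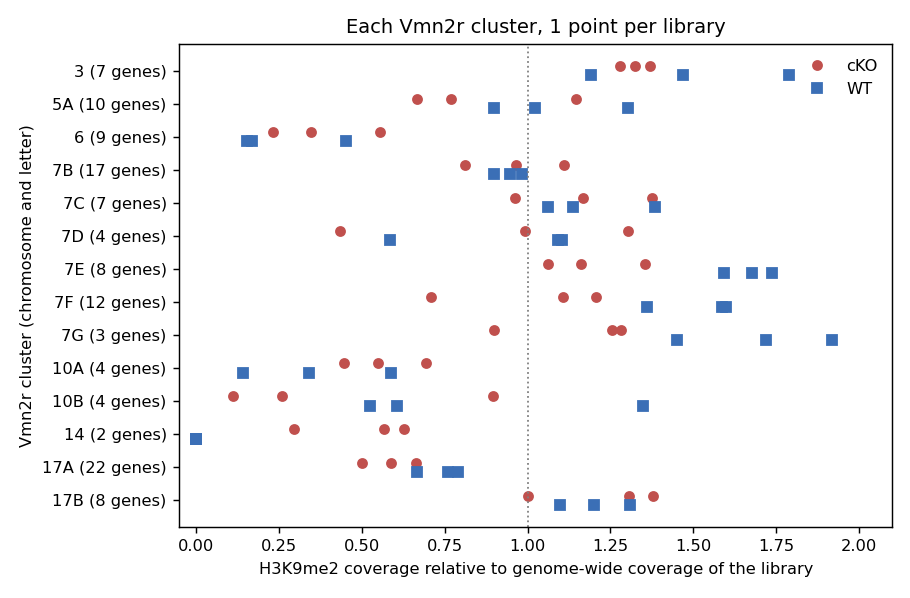
Relative H3K9me2 coverage of each of the 14 Vmn2r clusters with more than 1 gene, 1 point per library (red circles cKO, blue squares WT); the dotted line is the genome level. Clusters 6, 10A and 14 lie to the left in both genotypes, and in 7E, 7F and 7G every WT square lies to the right of every cKO circle.

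In windows of 1 Mb, 4 stretches of chromosome 7 that hold Vmn2r genes had lower relative coverage in cKO. Of 28 tested windows that touch a Vmn2r cluster, 4 fell in cKO (limma on relative coverage, adjusted p under 0.05 over 2552 windows), where 10.8% of all windows fell. The share of 14.3% is near that background. Of the 10 windows with 500 kb or more inside a cluster, a set chosen after seeing the data, 3 fell (30%) and 0 rose, 7 had a difference below 0, and the median difference was -0.163, where it was 0.0676 over all windows. In the other direction 1 of 28 rose, where 3.8% of all windows rose. The 4 that fell were chr7:41000001-42000000 and chr7:42000001-43000000 in cluster 7E, chr7:85000001-86000000 in 7F, and chr7:86000001-87000000, which holds parts of 7F and 7G. Of this last window 461 kb lies inside clusters, so the 3 that fell among the 10 are the others.

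The window chr7:86000001-87000000 had relative values of 1.08, 0.809 and 0.997 in cKO and 1.48, 1.72 and 1.67 in WT. The groups were far apart, with a difference of -0.663 ± 0.154 (SE; limma adjusted p = 0.000451). It was called again when any 1 of the 6 libraries was left out, with adjusted p from 0.000678 to 0.0200 by limma. The other 3 were each lost in most such fits: the count of windows that fell was 1 without cKO replicate 2, cKO replicate 3 or WT replicate 1, and 2 without WT replicate 2 or WT replicate 3. The window that rose, chr5:108000001-109000000 (limma adjusted p = 0.0438), holds the start of cluster 5A, which fills 208 kb of it. The window had relative values of 1.12, 1.25 and 1.15 in cKO and 0.823, 0.707 and 0.737 in WT. It was called in 1 of the 6 fits with a library left out, the one without cKO replicate 1, with adjusted p from 0.0343 to 0.147 by limma. Cluster 5A itself went the other way, with mean relative coverage of 0.861 in cKO and 1.07 in WT and overlapping groups. With peak lists cut to equal length, or without division by the genome-wide level, limma called no window of the genome in either direction. The differences kept their direction: with lists of equal length they were -0.594 in chr7:86000001-87000000, -0.352, -0.395 and -0.331 in the other 3 that fell (-0.434, -0.505 and -0.417 with all peaks), and 0.283 in the window that rose (0.417 with all peaks). At an unadjusted p under 0.05, 1 window touching a cluster was lower and 1 higher with lists of equal length, and 1 was lower and 3 higher without the division.

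At the level of single genes no Vmn2r receptor was called. Of 122 members, 91 (74.6%) had a mean covered percent of at least 1 over the 6 libraries and entered the limma fit, compared with 88.4% of all 21516 placed protein-coding genes. No member passed an adjusted p of 0.05, where 0% of all 19016 tested genes did, and the lowest adjusted p of a member was 0.530 by limma. At an unadjusted p under 0.05, 2 members were higher in cKO, where 7.43% of all tested genes were, and 2 were lower, where 0.941% were. After division by the genome-wide level the counts were 2 higher (background 5.06%) and 6 lower (background 1.64%). The counts before this division depended on single libraries, and no fit with a library left out was run after it. With 1 library left out, the undivided counts ran from 1 to 8 higher and from 0 to 6 lower. Without cKO replicate 3 there were 8 higher and 0 lower, and without WT replicate 2 there were 2 higher and 6 lower. Without cKO replicate 1 or WT replicate 3 there were 4 lower, with 2 and 1 higher, and without WT replicate 1 there was 1 in each direction.

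Members just inside the filter were Vmn2r98 at 1.02% and Vmn2r25 at 1.04%, and just outside it Vmn2r85 at 0.997% and Vmn2r112 at 0.968%. Over all 122 members the cKO mean was above the WT mean for 55 and below it for 58. Over all placed genes it was above for 66.8% and below for 26.5%. The median difference was -0.30 percentage points over the tested members and 1.26 over all tested genes, and 0 over all members and 1.05 over all placed genes. Averaged over all members, covered percent was 4.20, 3.56 and 2.23 in cKO and 3.44, 3.98 and 3.01 in WT, so the groups overlapped (exact permutation p = 0.9, n = 3 each). Divided by the mean over all placed genes of the same library, it was 0.942, 0.763 and 0.630 in cKO and 1.297, 1.086 and 1.011 in WT, with every cKO library below every WT library (exact permutation p = 0.1, the smallest possible, n = 3 each).

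Vmn2r101, in cluster 17A (chr17:19577231-19612317), had the smallest p of all members. Its covered percent was 1.69, 1.75 and 0 in cKO and 11.4, 11.2 and 3.65 in WT. All 3 WT libraries lay above all cKO libraries, and the difference was -7.58 ± 2.37 (SE; limma adjusted p = 0.530). Vmn2r60, in cluster 7E (chr7:42116471-42195776), had 4.66, 2.41 and 2.96 in cKO and 11.2, 6.04 and 6.32 in WT, again with no overlap (limma adjusted p = 0.568). The groups also failed to overlap, lower in cKO, for Vmn2r31, which makes 3 of 122 members where 1.19% of all genes did. In the other direction they failed to overlap for Vmn2r18, Vmn2r33 and Vmn2r109, 3 of 122 where 11.6% of all genes did.

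Vmn2r31 and Vmn2r33, both in cluster 7B with identical promoter windows, had differences of opposite sign. Vmn2r31 had 7.68, 6.34 and 6.70% covered in cKO and 11.7, 9.92 and 9.65% in WT. Vmn2r33 had 6.55, 6.38 and 6.16% in cKO and 3.32, 3.87 and 3.87% in WT. Neither passed the test (limma adjusted p = 0.607 and 0.571), and both were singled out after their values were seen.

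The receptors with the highest covered percent lay in clusters 7B, 7C and 5A. Vmn2r44 (chr7:8367460-8383238) had the highest mean of all members, 13.0%, with 12.6, 16.4 and 10.5 in cKO and 9.56, 16.7 and 12.4 in WT. Vmn2r50 in cluster 7C had 6.37, 13.7 and 11.2 in cKO and 15.1, 6.83 and 16.4 in WT. Vmn2r11 in cluster 5A ranged from 0 in WT replicate 1 to 24.6 in cKO replicate 2. In these 3 genes the groups overlapped, and single libraries differed from one another more than the genotypes did.

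Vmn2r45 (chr7:8471469-8488959) and Vmn2r34 share an identical promoter window, the one printed above for Vmn2r34, and differed in coverage. Vmn2r45 had 11.9, 17.8 and 9.87% in cKO and 4.64, 2.32 and 10.5% in WT (limma adjusted p = 0.568). Vmn2r34 had 2.94, 1.81 and 3.63% in cKO and 3.56, 0 and 1.81% in WT. Vmn2r45 was above Vmn2r34 in each of these libraries.

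The remaining receptors chosen as the highest or the most different of their clusters numbered 16, with means of 1.38 to 10.8%, and the groups overlapped in all 16 (limma adjusted p from 0.568 to 0.978). They were Vmn2r5, Vmn2r7, Vmn2r9, Vmn2r22, Vmn2r27, Vmn2r48, Vmn2r55, Vmn2r56, Vmn2r63, Vmn2r68, Vmn2r71, Vmn2r77, Vmn2r79, Vmn2r83, Vmn2r87 and Vmn2r-ps130, a gene annotated as protein-coding in spite of its symbol. The mean was higher in cKO for 10 and lower for 6. Vmn2r63 in cluster 7E had 4.15, 8.50 and 2.82% in cKO and 13.1, 14.4 and 6.06% in WT, where only WT replicate 3 lay within the range of cKO. Vmn2r7, the family C receptor whose promoter is printed above, had 14.3, 10.8 and 8.25% in cKO and 8.53, 10.5 and 5.62% in WT. Vmn2r9 in cluster 5A had 8.52, 9.05 and 0% in cKO and 0 in all WT libraries.

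Receptors with a role known from mouse work had mean covered percents from 0 (Vmn2r88) to 3.97 (Vmn2r53). The median was 2.47 over all 122 members and 3.05 over all placed genes. Vmn2r1, a family C receptor expressed widely among basal neurons, had 3.32, 1.48 and 0.655% in cKO and 2.28, 4.51 and 0.327% in WT. Vmn2r26 (V2r1b), which takes part in the detection of MHC peptides, was covered only in cKO replicate 3, at 3.70%. Vmn2r116, the ESP1 receptor whose promoter is printed above, had 8.27, 0 and 1.85% in cKO and 0, 2.90 and 2.33% in WT (limma adjusted p = 0.805).

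Vmn2r53, linked to aggression between males, had 3.58, 2.26 and 0% in cKO and 2.28, 0 and 15.7% in WT, so that 1 WT library set its WT mean. Vmn2r88, a receptor for haemoglobin, was at 0 in all 6 libraries, as were 9 of the 122 members (7.38%, against 5.05% of all genes). Of the 5 receptors that stand alone, Vmn2r118 was at 0 in every library and Vmn2r120 and Vmn2r28 were covered only in WT replicate 2. Vmn2r129 was covered only in cKO replicates 1 and 2, at 6.84 and 3.03%. Vmn2r18 had 0.627, 3.66 and 2.13% in cKO and 0 in all WT libraries (limma adjusted p = 0.568).

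**Figure D3:**
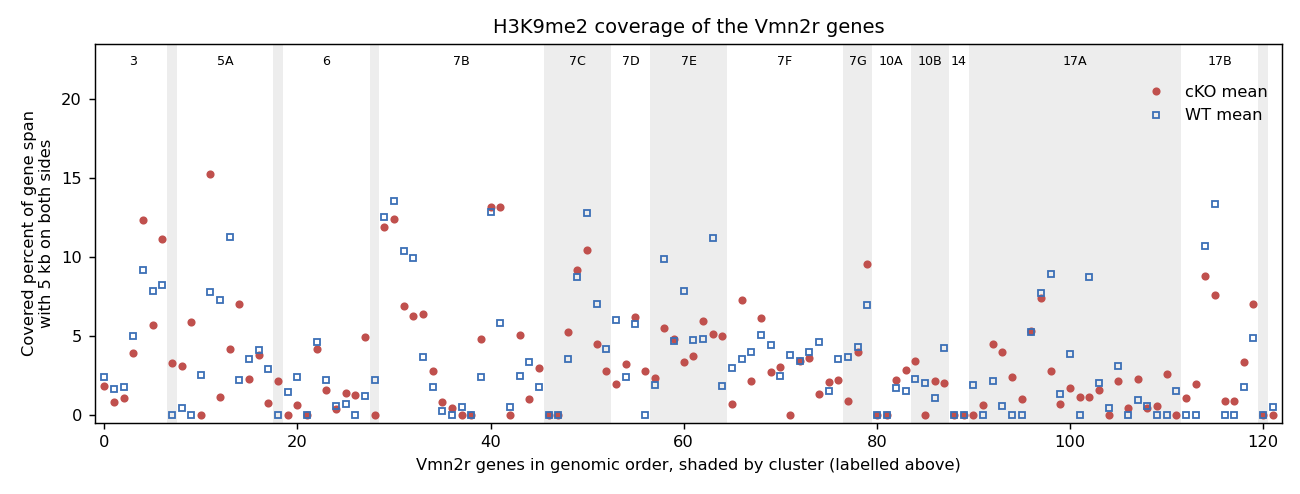
Mean H3K9me2 covered percent of each of the 122 Vmn2r genes in genomic order, with shading and labels by cluster (red points the mean of 3 cKO libraries, open blue squares the mean of 3 WT libraries). Genes of clusters 6 and 17A lie mostly near the bottom, and the highest means, such as that of Vmn2r44 at 13.0%, lie in clusters such as 7B.

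Within the clusters the receptor genes themselves were covered less than the sequence between genes. Vmn2r gene bodies averaged 3.27% ± 0.795, Vmn2r pseudogenes 3.64% ± 0.956 and sequence between genes 4.27% ± 0.763 (SD, n = 6 libraries). The log2 ratio of gene bodies to sequence between genes was -0.41 ± 0.22, below 0 in 6 of 6 libraries (exact sign-flip p = 0.03125, the smallest it can give; a comparison chosen after seeing the data). Over all autosomal protein-coding genes the same ratio was -0.17 ± 0.17, below 0 in 5 of 6 libraries. The Vmn2r ratio was lower than that of all genes by -0.24 ± 0.34, in 5 of 6 libraries, and the difference did not pass (exact sign-flip p = 0.156, n = 6).

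Reproducible sites were few. Of 12620 windows of 1 kb in the clusters, 10 were covered over at least 500 bp in all 3 cKO libraries and no WT library, or 0.0792% (background 0.058%). In all WT and no cKO libraries 4 were covered, or 0.0317% (background 0.0367%), 1 of them inside Vmn2r60 at chr7:42177001-42178000. A single window was covered in all 6 libraries, chr7:42209001-42210000, which lies 13225 bp from Vmn2r60 (background 0.00671%). Between 54.4 and 65.3% of the peaks of a library in the clusters touched a peak of another library, and 49.9 to 57.1% did so genome-wide.

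The clusters also hold 27 other protein-coding genes, among them 8 Zfp genes, which encode zinc finger proteins, and formyl peptide receptors. Of these, 17 had a higher mean in cKO and 8 a lower one, with 23 tested, none called by limma (lowest adjusted p = 0.520) and 3 at an unadjusted p under 0.05, 2 of them higher in cKO (background 7.43%) and 1 lower (background 0.941%). By sign alone, 66.8% of all placed genes were higher and 26.5% lower. The lowest p belonged to 4933421I07Rik in cluster 7E (chr7:42445455-42448102), a gene of unstated role singled out after its values were seen. Its covered percent was 0 in all 3 cKO libraries and 14.2, 11.8 and 12.5 in WT. In the same cluster Zfp141 had a higher mean in cKO, with 7.46, 8.21 and 3.54 in cKO and 2.36, 1.18 and 2.72 in WT (limma adjusted p = 0.568). Fpr2, a formyl peptide receptor in cluster 17A, had 9.90, 11.7 and 7.12 in cKO and 3.10, 6.20 and 3.10 in WT (limma adjusted p = 0.568).

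Open chromatin was rare in the Vmn2r clusters in both ATAC libraries. Tumour Treg had 27 peaks there, or 2.14 per Mb against 10.98 per Mb over the autosomes, and spleen Treg had 20, or 1.58 against 5.20 per Mb. Of these, 18 in each library were shared. The other receptor arrays were sparse too. Vmn1r clusters had 1.27 peaks per Mb in tumour and 1.36 in spleen, and Olfr clusters had 3.19 and 1.82. With 1 library per tissue there is no replicate check. The peaks in Vmn2r clusters lay in 5 of the 19 (7B, 7E, 10A, 17A and 17B). The other 14 clusters, with 63 receptors over 4.76 Mb, had none in either library.

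Most of this open chromatin lay away from the receptors. In tumour, 8 peaks lay within 1 kb of the start of a gene that is no Vmn2r gene, 6 of them Zfp genes, and in spleen 7 did, 5 of them Zfp genes. These counts may be incomplete: no start of Zfp40 was among those used, and a peak overlapping Zfp40 in each library was not counted. The peak with the most tags in spleen, at Zfp788, had a normalized tag count of 330.2 in the authors' list and 207.6 in tumour, and lay 184 kb from Vmn2r57. The peak with the most tags in tumour, in the overlapping genes Spaca6 and Has1, 104 kb from Vmn2r90, had 281.1 in tumour and 143.6 in spleen. Median distance to the nearest Vmn2r gene was 97.6 kb in tumour and 54.1 kb in spleen.

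Only Vmn2r29 and Vmn2r96 had an ATAC peak within 5 kb, in both libraries. That is 1.64% of members, where 60.9% of all genes in tumour and 47.9% in spleen had one. At Vmn2r29 (chr7:7212996-7278289) 1 peak lay at the distal start, chr7:7278198-7278520 in tumour and chr7:7277723-7278591 in spleen, with 17.7 and 19.4 normalized tags. A second peak lay 2.78 kb from Vmn2r29 in tumour and 2.67 kb in spleen, at the start of Zfp772, and another, in tumour only, lay 3.08 kb away. At Vmn2r96 (chr17:18573255-18598157) the peak lay inside the gene, 16.0 kb from its start in tumour and 15.7 kb in spleen, with 8.85 and 14.5 normalized tags. These receptor peaks were weak beside the median of all autosomal peaks, 24.3 in tumour and 26.2 in spleen.

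**Figure D4:**
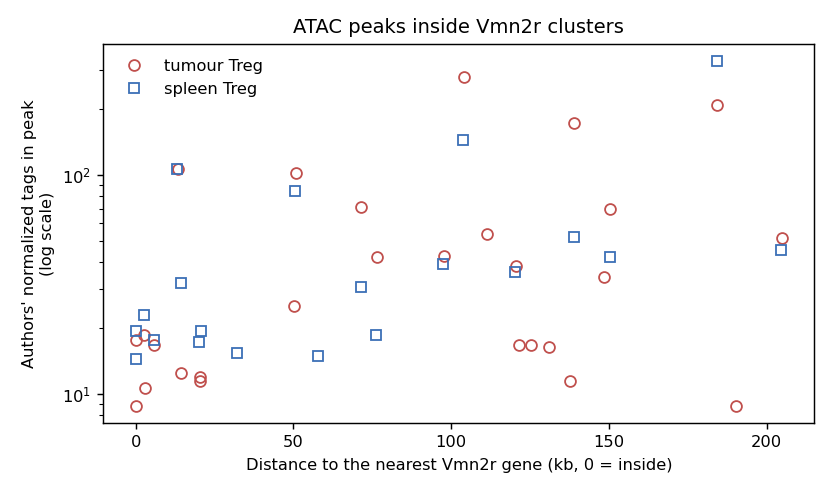
ATAC peaks inside Vmn2r clusters by distance to the nearest Vmn2r gene in kb and the authors' normalized tags on a log scale (red circles tumour Treg, 27 peaks; blue squares spleen Treg, 20 peaks). Peaks at distance 0 have fewer than 20 tags, and the strongest peaks lie over 100 kb away.

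Vmn2r promoters were poor in CG, with the distal start of Vmn2r29 as the exception. RefSeq windows were found for 116 of 122 members, 117 windows in all. They held a median of 1 CG dinucleotide, against 14 in all 20077 autosomal windows, and 34 held none. The distal start of Vmn2r29 held 23, the most of any member, and was 62.3% G and C. It was the only Vmn2r window with 5 or more CG, where 14553 of all windows had as many. The proximal start of the same gene, 31.0 kb away, held none and had no ATAC peak. The covered percent of the gene was 17.3, 8.77 and 9.75 in cKO and 16.0, 10.7 and 10.9 in WT, a mean of 12.2% over the 6 libraries, and the groups overlapped.

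**Figure D5:**
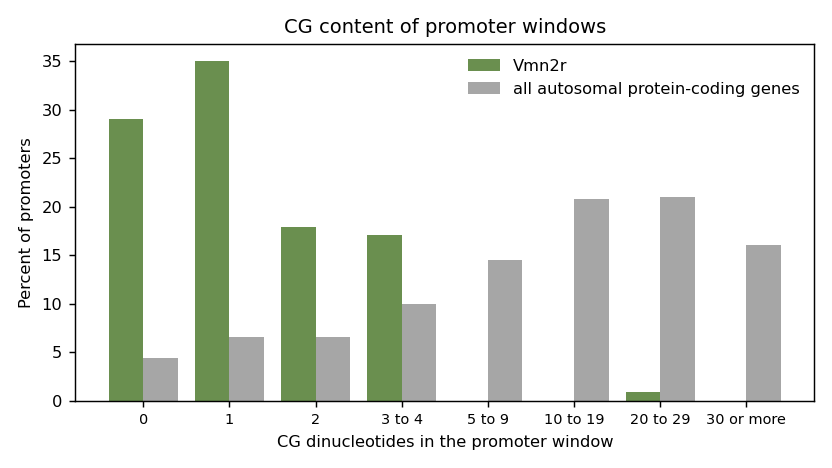
Share of promoter windows by number of CG dinucleotides, for 117 Vmn2r windows (green) and 20077 windows of all autosomal protein-coding genes (grey). Vmn2r windows end at 4 CG, apart from the distal start of Vmn2r29 with 23.

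H3K9me2 peaks over Vmn2r promoters were found at a share near that of all genes. At least 50% of the window was covered in at least 1 library for 18 of 117 Vmn2r windows (15.4%), and for 16.3% of all windows. In 2 or more libraries this held for 5 of 117, those of Vmn2r68, Vmn2r72, Vmn2r73, Vmn2r79 and Vmn2r83, and in 3 or more libraries for none. Of all 20077 windows it held for 715 in 2 or more libraries and for 139 in 3 or more.

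The promoters resemble one another. Each was aligned with all others, and the median identity to the nearest was 92%. Windows of 8 members were identical to that of another member (Vmn2r31 and Vmn2r33, Vmn2r32 and Vmn2r49, Vmn2r34 and Vmn2r45, Vmn2r62 and Vmn2r126), and 23 members had an identity of 98% or more. Reads from such copies cannot be placed with certainty, so the split between them is uncertain, and no header says how the authors treated such reads. Mean covered percent was 1.75 in the 20 members under 80% identity, 2.57 in the 30 from 80 to 90%, and 3.30 in the 28 from 90 to 95%. It was 5.69 in the 15 members from 95 to 98% and 4.76 in the 23 at 98% or more. Whether the placing of reads plays a part in this was not tested.

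Of the motifs searched on both strands, with overlaps between motifs allowed, TATAAA was found in 23.1% of Vmn2r windows and 12.7% of all windows. The homeodomain core TAATTA was in 17.1% and 4.48%, and the E-box CANNTG in 97.4% and 68.7%. The GC-rich GCCNNNGGC was in 6.84% and 20.2%. The Ebf-type motif was in none of the Vmn2r windows and in 0.981% of all windows. These are matches of letters and not sites of binding.

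Genes that work with the receptors gave no call either. Each list below had 0 members passing limma's adjusted p of 0.05, and the background was 0% of all genes. Of 12 transduction genes, including Gnao1, 9 were tested and none had an unadjusted p under 0.05 (lowest limma adjusted p = 0.667). The median difference of those tested was 0.89 points, against 1.26 over all tested genes, and that of all 12 was 0.31, against 1.05 over all placed genes. Of 10 genes for H2-Mv molecules, the MHC class I proteins that accompany some Vmn2r receptors, and their partner B2m, 7 were tested. B2m had 7.87, 6.50 and 10.2% in cKO and 0, 0 and 3.25% in WT, with no overlap (limma adjusted p = 0.520), where 11.6% of all genes were higher in cKO with no overlap. With no flank the B2m difference turned to -3.09 points, lower in cKO. B2m is expressed in nearly all cells and had an ATAC peak in both libraries.

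No gene of the Esp and Mup ligands was called. Of 15 Esp genes 12 were tested, 3 had a higher and 9 a lower mean in cKO, and the median difference was -2.56 points among those tested and -0.642 over all 15. Esp15 and Esp24 had an unadjusted p under 0.05 by limma (adjusted p = 0.568 for both), both lower in cKO, where 0.941% of all tested genes were. Esp3 was the only Esp gene whose groups did not overlap, and it was higher in cKO, with 4.24, 1.01 and 18.3% against 0 in all 3 WT libraries (limma adjusted p = 0.568; background 11.6%); it was singled out after its values were seen. Esp15 had 1.78, 0 and 3.40% in cKO and 11.1, 3.40 and 6.36% in WT, so the groups touched at 3.40. With no flank its difference turned to 3.24 points, higher in cKO. Esp1, which encodes the ligand of Vmn2r116, was at 0 in all libraries. Of 22 Mup genes 11 were tested, with 6 higher, 8 lower and a median difference of -3.23 points among those tested and 0 over all 22 (lowest limma adjusted p = 0.568). No Esp or Mup gene had an ATAC peak within 5 kb.

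Of 5 formyl peptide receptor genes of vomeronasal type, 4 were found and 2 tested, both with a higher mean in cKO (lowest limma adjusted p = 0.667). Of 9 transcription factors of vomeronasal or olfactory neuron fate, 8 were tested, and 8 of the 9 had a higher mean in cKO, where 66.8% of all placed genes did. Lhx2, which acts in olfactory receptor choice, had 5.64, 3.71 and 5.42% in cKO and 1.24, 2.47 and 1.24% in WT, with no overlap (limma adjusted p = 0.568). Meis2 was also higher in cKO with no overlap (limma adjusted p = 0.813). Of all placed genes, 11.6% were higher in cKO with no overlap. Of the 9 factors, 5 had an ATAC peak in tumour and 3 in spleen, where 60.9% and 47.9% of all genes had one within 5 kb. Bcl11b, also a T cell factor, had one in both.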

How the data were processed

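H3K9me2 CUT&RUN (6 libraries) and ATAC-seq (2) were deposited as peak lists. Build mm10, HOMER, deepTools, Picard, Bowtie2 2.4.2, SAMtools 1.11 and Trim Galore 0.6.6 are listed in the submitters' processing notes without their roles. HOMER was run by the authors on each library alone, per the file headers, with a peak size of 500 bp for H3K9me2. The deposited columns hold a tag signal scaled to a common total, a score, a fold over the local region as a ratio, its p-value, and, for ATAC, a focus fraction, all the authors' own values per peak. The deposited region size is in bp (other unit). The deposited H3K9me2 lists hold 24.4 to 43.9% of the peaks that their headers count, so covered length measures local enrichment, and wide flat domains can escape it.

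Covered percent was computed from the positions of the deposited peaks with Python 3.11.15. Gene positions came from RefSeq (GRCm38.p6). Genes that end before the first H3K9me2 peak of their chromosome were taken to lie on unplaced scaffolds and were left out. Chromosome length was taken as the last position in peaks and genes. Single values were compared by exact permutation tests over libraries, two-sided, and genes and 1 Mb windows by limma 3.58.1 (R 4.3.3; moderated variances with a trend, Benjamini-Hochberg adjustment over all tested features, mean coverage of 1% or more). The limma step was tested on simulated data. Promoter identity was computed with edlib 1.3.9.post1. Tag totals are the only depth given, and the number of libraries limits precision; no counts per region were used.

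Named genes were, in each cluster, the tested member with the highest mean and the one with the smallest p, every receptor that stands alone, receptors with a known role and those with ATAC peaks; other names were chosen after their values were seen. The members, lists and tests were chosen with earlier results of these data known. Alternatives were other peak thresholds, flanks, cluster gaps, filters, scales and window sizes, each library left out, and a replicate block.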

Additional observations from a re-analysis of the deposited data

How the results depend on the processing

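The relative difference of the pooled clusters (-0.163) kept its sign under all alternatives run, from -0.203 to -0.0988. With the replicate block its exact p was 0.25, and limma then called 294 windows that rose genome-wide and 2 touching a cluster, and 372 and 6 that fell. Whether the same replicate numbers pair the samples is not known. Correlations between cKO and WT libraries of the same number were 0.0754, 0.00480 and 0.0262, and those of other pairs ran from -0.0542 to 0.0265. Not every sample correlated best with its own number, and values so low cannot decide the question. They do not measure how far libraries share peaks: genome-wide, 49.9 to 57.1% of the peaks of a library touched a peak of another.

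The unscaled pooled difference (0.0194 points) had no stable direction: it was -0.202 with lists of equal length, -0.0943 with clusters joined under 200 kb, -0.00680 with clusters joined under 1 Mb, and -0.563 to 0.500 with 1 library left out. That of the mean over members ran from -0.579 to 0.406 with 1 library left out. The log2 ratio to the rest of the autosomes became 0.075 with lists of equal length and 0.31 with the stronger 50% of each list (exact sign-flip p = 0.03125, n = 6), and that to Olfr became -0.00854 with the stronger 50%. The log2 ratio of gene bodies ran from -0.46 to -0.33 with 1 library left out, where the exact sign-flip test over 5 libraries cannot go below p = 0.0625.

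Windows that fell and rose numbered 132 to 307 and 14 to 177 genome-wide with 1 library left out, and 1 to 4 and 0 to 1 among those touching a cluster. With lists of equal length and without scaling all 4 counts were 0. With the stronger 50% they were 135 and 53, and 1 and 0. Windows of 500 kb, and windows with 500 kb or more inside a cluster, left 0 that rose. Over all genes limma called 7 with no filter and 1 on the arcsine scale, and 0 Vmn2r members under each alternative. ATAC peaks in clusters were 14 in tumour and 11 in spleen with the stronger 50% of each list, and 10 and 9 with clusters joined under 200 kb.

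Of the 14 clusters, 9 kept the sign of their unscaled difference throughout. Cluster 3 became -0.179 with lists of equal length and 5A 0.0123 with the stronger 50%. Cluster 7E counts as changed only because it split with genes joined under 200 kb. The piece read there was Vmn2r57 alone, at 0.449, which is not a value of the whole cluster. With 1 library left out, 7E stayed below 0, from -1.81 to -0.112. With 1 library left out, cluster 3 ran from -0.572 to 1.06, 5A from -1.17 to 0.684, 7D from -0.469 to 2.23 and 17A from -0.586 to 0.281. Of 43 genes, 29 kept their sign. With lists of equal length Vmn2r44 became -2.94. With the stronger 50%, Vmn2r29 became 0.433, Vmn2r50 0.717 and Vmn2r55 -1.14. With no flank, Vmn2r96 became 2.90, Vmn2r5 -1.46, Vmn2r29 0.0158, Vmn2r44 -3.13, B2m -3.09 and Esp15 3.24. Divided by the genome-wide level, Vmn2r44 became -0.415, Vmn2r55 -0.189 and Vmn2r68 -0.00499. With 1 library left out, Vmn2r116 ran from -0.822 to 3.31, Vmn2r55 from -2.00 to 2.75, Vmn2r68 from -1.44 to 4.91, Vmn2r22 from -3.51 to 1.64 and Vmn2r29 from -3.28 to 1.13. Likewise Vmn2r44 ran from -1.35 to 2.20, Vmn2r96 from -2.36 to 3.44, Vmn2r1 from -1.58 to 0.515, Vmn2r87 from -4.31 to 1.71 and Vmn2r53 from -7.04 to 0.806. None of these genes was called, and the cause of each change was not tested.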
